A study of Macaca fascicularis with 12 samples.

Results

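The small membrane proteins that interferon induces were described here in macaque brain, through the genes IFITM1, IFITM2, IFITM3, IFI27, IFI6 and BST2. Members were all probe sets of the array whose single annotated gene symbol is 1 of these 6. They came to 5 of 52865 probe sets, from 3 of the 6 genes and of 14133 genes named in all: 2 for IFITM1, 1 for IFI27 and 2 for BST2. No probe set was named by IFITM2, IFITM3 or IFI6 alone in the annotation used here, and these genes were not analysed. All 5 probe sets passed the intensity filter and were tested.

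Tissue came from 3 adult male cynomolgus macaques (Macaca fascicularis). The left hemisphere received the baculoviral vector BV-HSVtk in 4 injections into caudate and putamen, each of 10 µL with 1e8 particles, and the right hemisphere received a virus-free insect cell medium purified in the same way (mock). At 2 days, 2 pieces of about 100 mg were taken per hemisphere and each was put on 1 array, giving 6 BV and 6 mock arrays. BV was always on the left, so vector and side cannot be told apart, and every mock hemisphere lay in an animal that also carried BV. Replicates 1 and 2 are pieces 1 and 2 of animal 1, replicates 3 and 4 those of animal 2, and replicates 5 and 6 those of animal 3.

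Type I interferons signal through a receptor and JAK kinases to transcription factors, which switch on antiviral genes in most cell types. IFITM proteins sit in the plasma membrane and endosomes and hinder fusion of incoming enveloped viruses. BST2, also called tetherin, is anchored in the membrane at both ends and holds budding virions on the cell. IFI27 and IFI6 are short hydrophobic proteins of the ISG12 family, found at mitochondria and the endoplasmic reticulum. In brain, these genes can be induced in glia, neurons, vessel cells and infiltrating leukocytes.

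Array medians ran from 25.4 to 32.7 for piece 2 and from 50.2 to 62.8 for piece 1, so all arrays were quantile normalized, and signals below are on that scale. Levels and differences in log2 are of signal plus a pseudocount of 3.49. Markers of oligodendrocytes (MBP and CNP, 2 of 5 tested) summed to between 9014 and 10577 in BV tissue and between 9113 and 10301 in mock tissue, which fits the label of brain. The region sampled varied: the mean log2 level of 6 striatal medium spiny neuron markers ran from 5.40 to 9.45 in BV arrays and from 5.81 to 10.45 in mock arrays. That of 4 thalamic markers ran from 6.66 to 9.84 in BV arrays and from 6.55 to 9.84 in mock arrays. Mock replicate 6 had the highest actin 3′/5′ signal ratio, 2.40 against 1.10 to 1.40 on the other 11 arrays, which is a measure of RNA integrity.

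All 3 measured genes had higher signal in BV tissue. IFI27 rose 5.86-fold and 1 of the 2 IFITM1 probe sets rose 2.74-fold, while the other IFITM1 probe set and both BST2 probe sets had folds between 2.36 and 3.59 that did not pass. In 6 of 6 replicate pairs the BV array was the higher one for each of the 5 probe sets, as for 3.37% of all 31660 probe sets tested. In limma's moderated test with animal as a block and Benjamini-Hochberg adjustment, 2 of the 5 passed at an adjusted p of 0.05, and 0.0284% of all tested probe sets did so in the same direction. At an unadjusted p of 0.05 all 5 lay higher, against 5.15% of all. The median difference of the 3 genes, each by its brightest probe set, was 1.43 on the log2 scale, where the median of all tested probe sets was -0.02.

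**Figure D1:**
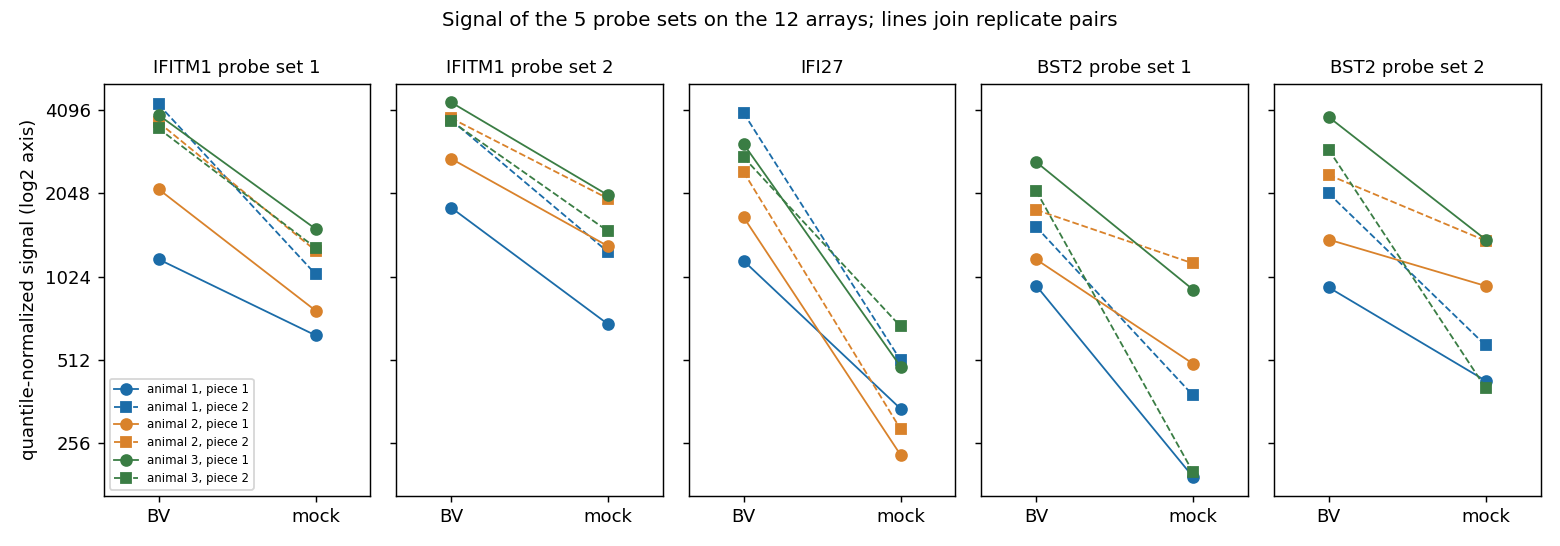
Quantile-normalized signal (log2 axis) of the 5 probe sets on 6 BV arrays (left in each panel) and 6 mock arrays (right), with lines joining arrays of the same replicate number. Colours mark the 3 animals, and circles and squares mark pieces 1 and 2. Every line runs higher on the BV side, and in the IFI27 panel the groups do not overlap.

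IFITM1, which hinders virus entry at the cell surface, has 2 probe sets. The probe set MmugDNA.19587.1.S1_at, called probe set 1 here, had a lowest, median and highest signal of 1184, 3604 and 4288 on BV arrays, against 629, 1160 and 1525 on mock arrays. BV replicate 1 was the low BV array, and 3 mock arrays lay above it, so the groups overlapped by that array alone. Mean log2 levels were 11.48 ± 0.36 in BV and 10.03 ± 0.40 in mock hemispheres (SD, n = 3 each). The difference was 1.45 ± 0.10 (SE), or 2.74-fold, with a limma adjusted p of 0.0269. Animals 1, 2 and 3 had nearly the same difference, 1.47, 1.49 and 1.40, an SD of 0.051. Single pairs ran from 0.91 in replicate 1 to 2.03 in replicate 2, both of animal 1, so the evenness over animals came after averaging pieces.

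The brighter IFITM1 probe set, MmugDNA.5697.1.S1_s_at or probe set 2, had signals of 1818, 3752 and 4365 on BV arrays, against 690, 1408 and 2018 on mock arrays. BV replicate 1 again was the lowest BV array, below mock replicates 4 and 5. The difference was 1.24 ± 0.12 (adjusted p = 0.117 in limma), with 1.49, 1.01 and 1.22 in animals 1, 2 and 3 and a range over pairs of 0.96 to 1.58. On arrays of this maker the suffix _s_at marks probes that match more than 1 transcript. IFITM1, IFITM2 and IFITM3 are close paralogs, so which of them either probe set detects is uncertain, and probe sequences were not used here. With the 6 replicate numbers as the block on single arrays, both IFITM1 probe sets passed (adjusted p = 0.0047 and 0.00237), as did IFI27 (0.00184). This made 3 of 5, where 0.167% of all probe sets passed upward. In that fit 2 pieces of 1 animal count as separate pairs.

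IFI27, the ISG12 protein at mitochondria whose transcript is widely used as a sign of interferon exposure in blood, had the largest difference of the 5. Its probe set, MmunewRS.254.1.S1_at, had signals of 1168, 2604 and 3992 on BV arrays, against 233, 413 and 677 on mock arrays. All 6 BV arrays lay above all 6 mock arrays, which held for 0.237% of all tested probe sets and for no other of the 5. Mean log2 levels were 11.19 ± 0.28 in BV and 8.64 ± 0.57 in mock hemispheres (SD, n = 3 each). The difference was 2.55 ± 0.16, or 5.86-fold (limma adjusted p = 0.0256), 15th in size and 5th in p among 31660. Animal 2 had the largest value, 2.95, beside 2.36 in animal 1 and 2.34 in animal 3, and pairs ran from 1.76 in replicate 1 to 3.07 in replicate 4. Animal 2 also had the lowest IFI27 signals in mock tissue, 233 and 288, against 342 to 677 in the other 2 animals.

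BST2, which tethers budding virions, had the widest spread. The dimmer of its 2 probe sets, probe set 1, had signals of 951, 1667 and 2658 on BV arrays, against 194, 439 and 1144 on mock arrays. Mock replicate 4 was above the lowest BV array, and the mock signals differed 5.90-fold among themselves while the BV signals differed 2.80-fold. The difference was 1.84 ± 0.29, or 3.59-fold, and did not pass in limma (adjusted p = 0.281). The brighter probe set 2, MmugDNA.41833.1.S1_at, had 937, 2216 and 3863 on BV arrays, against 406, 764 and 1395 on mock arrays, and a difference of 1.43 ± 0.27 (adjusted p = 0.377). With 3 animals, these p-values do not show that BST2 was unchanged. Here 3 mock arrays reached the lowest BV array.

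Both BST2 probe sets ordered the animals alike. Probe set 1 had differences of 2.14, 0.94 and 2.44 in animals 1, 2 and 3, and probe set 2 had 1.46, 0.67 and 2.16. The largest pair was that of replicate 6, at 3.35 and 2.85, where mock replicate 6 had signals of 201 and 406. Its partner piece of the same hemisphere, mock replicate 5, had 920 and 1395. The pair of replicate 5 had differences of 1.53 and 1.47, beside 2.14 and 1.46 in animal 1. The lead of animal 3 over animal 1 thus rested largely on the pair of replicate 6. Without mock replicate 6 the differences were 1.48 (adjusted p = 0.0892) and 1.13 (adjusted p = 0.0842).

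**Figure D2:**
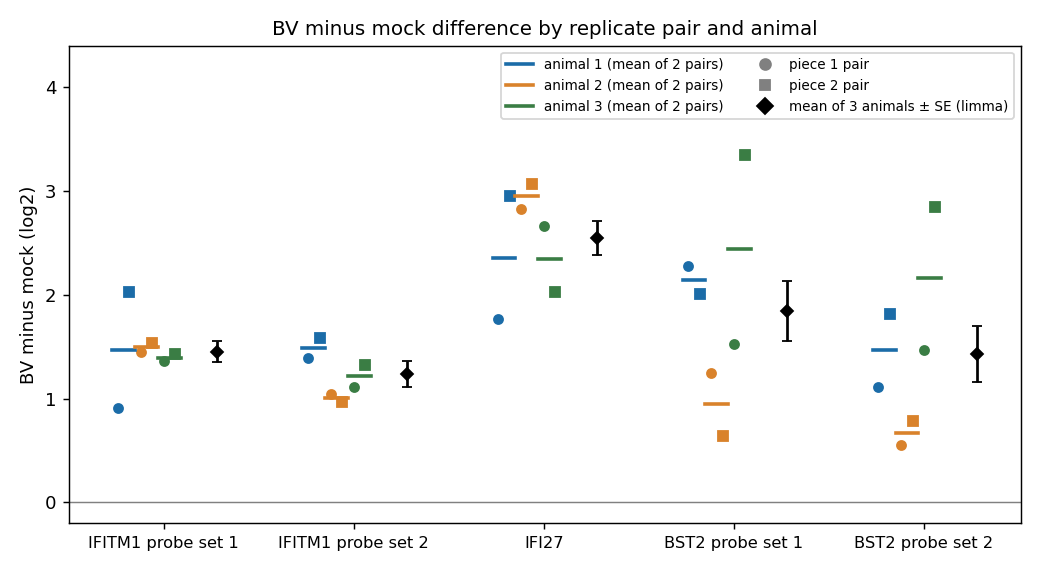
BV minus mock difference (log2) of each probe set by replicate pair (circles piece 1, squares piece 2), by animal (coloured bars, mean of 2 pairs), and as the mean of 3 animals ± SE from limma (black). Animal values of IFITM1 probe set 1 lie between 1.40 and 1.49, and those of BST2 probe set 1 between 0.94 and 2.44.

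Whether the animals differed was tested with an animal by treatment term on single arrays. Of the 5 probe sets 0 passed in this limma F test, with unadjusted p from 0.213 for BST2 probe set 2 to 0.991 for IFITM1 probe set 1, and 0% of all probe sets passed (735 at an unadjusted p of 0.05). The different order of the animals in IFI27 and BST2 is therefore a description of 3 animals. A p that misses the threshold does not show that the animals responded alike, with 2 arrays per hemisphere.

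The array sets of piece 1 and piece 2 gave differences of the same sign. With each set normalized and fitted alone, IFITM1 probe set 1 had 1.31 in piece 1 and 1.47 in piece 2 (adjusted p = 0.114 and 0.557), and probe set 2 had 1.25 and 1.12 (0.0452 and 0.582). IFI27 had 2.49 and 2.48 (0.0569 and 0.557). BST2 had 1.73 and 1.91 by probe set 1 (0.14 and 0.752), and 1.10 and 1.68 by probe set 2 (0.253 and 0.752). In piece 2, the 3 BV arrays lay above the 3 mock arrays for 5 of 5 probe sets, against 4.96% of all. In piece 1 this held for 2 of 5, IFI27 and BST2 probe set 1, against 5.12% of all. A piece by treatment term was called for 0 of 5 probe sets and for 0% of all (569 at an unadjusted p of 0.05), with unadjusted p of the members from 0.298 to 0.798.

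The calls rested on single arrays and animals, the sizes less so. For IFITM1 probe set 1 the call was lost when any of BV replicates 1, 2, 3, 4 and 6 and mock replicates 1, 3 and 5 was left out, at adjusted p of 0.0623 to 0.332. That of IFI27 was lost at adjusted p of 0.0881 and 0.0662 on dropping BV replicates 2 and 6, one at a time, and at 0.0769 and 0.332 on dropping mock replicates 3 and 5. Without animal 1 neither passed (0.277 and 0.107). Without animal 2 all 5 probe sets passed, but there 1149 of 31660 probe sets passed upward, against 9 as reported. Without mock replicate 4, IFITM1 probe set 2 (0.0311) and BST2 probe set 1 (0.0474) passed too, among 28 probe sets in all. Without mock replicate 6 IFITM1 probe set 2 did (0.0327), among 42. Over 28 alternatives the difference of IFITM1 probe set 1 stayed between 1.15 and 1.75, and that of probe set 2 between 1.07 and 1.41. That of IFI27 stayed between 2.26 and 2.84. The difference of BST2 ran from 1.48 to 2.30 by probe set 1 and from 1.06 to 1.82 by probe set 2.

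**Figure D3:**
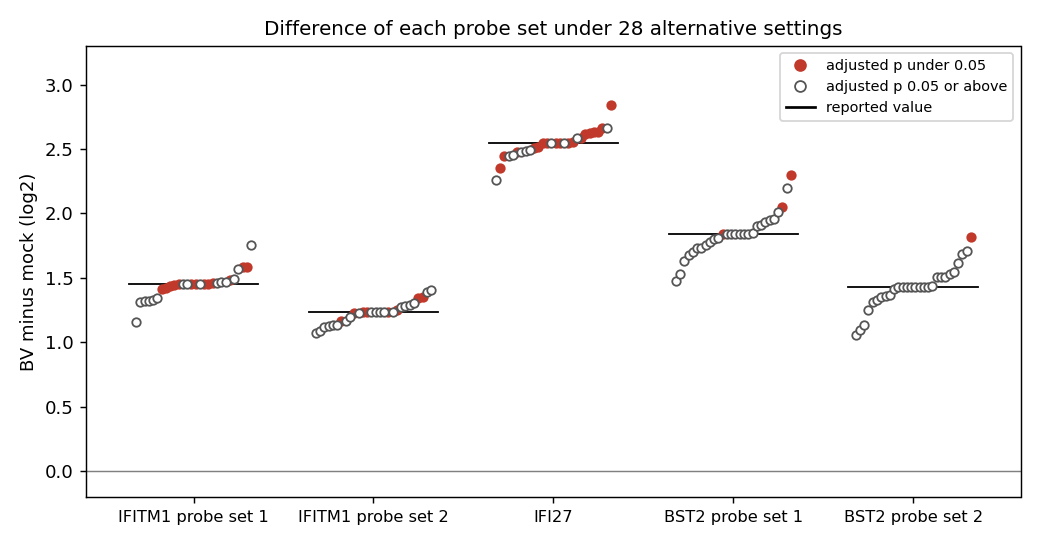
BV minus mock difference (log2) of each probe set under 28 alternative settings, sorted by value within a probe set, with red points where the adjusted p was under 0.05 and the reported value as a black line. IFI27 passed under 18 settings, IFITM1 probe set 1 under 13 and probe set 2 under 8, BST2 probe set 1 under 3 and probe set 2 under 1, and every point lies above 0.

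Levels in mock tissue varied with the tissue piece. From lowest to highest, BST2 probe set 1 put the mock arrays in the order of replicates 1, 6, 2, 3, 5 and 4, at signals of 194, 201, 382, 497, 920 and 1144. The mean log2 level of 11 tested microglia and macrophage markers (of 12 listed) ranked the mock arrays in the same order, from 7.52 in replicate 1 to 8.96 in replicate 4. BST2 probe set 2 had another order, that of replicates 6, 1, 2, 3, 4 and 5, at 406, 431, 579, 949, 1381 and 1395. The mean of 6 neutrophil markers was likewise lowest in mock replicates 6 and 1 (4.93 and 4.98) and highest in 5 and 4 (6.15 and 6.74). Over the 6 mock arrays, Pearson's r of BST2 probe set 1 was 0.942 with neutrophil markers and 0.922 with microglia and macrophage markers. With the other antiviral effectors listed below it was 0.941. For probe set 2 these values were 0.883, 0.848 and 0.899, so the cell markers were not alone in this likeness. Nor was BST2 alone in it. In the same order, the values were 0.723, 0.868 and 0.681 for IFITM1 probe set 2 and 0.566, 0.654 and 0.523 for probe set 1. For IFI27 they were -0.284, -0.226 and -0.316. With endothelial and mural cell markers, r was 0.807 and 0.714 for BST2 probe sets 1 and 2. It was 0.828 and 0.919 for those of IFITM1, and 0.137 for IFI27. IFITM1 probe set 1 was lowest in mock replicates 1 and 3, at 629 and 773, the 2 mock arrays highest in thalamic markers (mean log2 levels of 9.84 and 9.53). It was between 1046 and 1525 in the other 4, where the thalamic mean was 6.55 to 7.71. Mock replicates 1 and 3 were also the highest mock arrays in the mean of 2 tested neuron markers (12.05 and 11.93). They were the lowest in striatal markers (5.99 and 5.81). IFI27 had its lowest mock signals in replicates 3 and 4, which lay far apart in thalamic level (9.53 and 6.86).

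The differences were also set beside those of cell markers, since more cells of a type and more transcript per cell cannot be told apart in bulk tissue. The microglia and macrophage mean was 0.55, 0.50, 0.49 and 0.82 higher in BV tissue in the pairs of replicates 1, 2, 5 and 6, and differed by -0.13 and -0.04 in replicates 3 and 4 of animal 2. BST2 probe set 1 had 2.27, 2.01, 1.53 and 3.35 in the same 4 pairs, and 1.25 and 0.64 in those of animal 2. IFITM1 probe set 2 had 1.39, 1.58, 1.11 and 1.32 in those 4 pairs, and 1.05 and 0.96 in those of animal 2. Probe set 1 of IFITM1 had 0.91, 2.03, 1.36 and 1.43, and 1.45 and 1.53 in animal 2. IFI27 had 1.76, 2.96, 2.66 and 2.02 in those 4 pairs, and 2.83 and 3.07 in those of animal 2. The marker mean joins genes of both signs: differences were positive for 7 of the 11 and negative for 4, 0 passed in limma (4 at an unadjusted p under 0.05), and the median difference was 0.18. LYZ, MS4A6A and CD68 had 1.47, 1.45 and 1.41, and ITGAM had -0.62 and was lower in BV tissue in every pair (limma adjusted p = 0.507); these 4, the ends of the list, were picked after their values were seen. The summed signal of the list ran from 3793 to 10274 in BV and from 2815 to 8528 in mock tissue, with no probe set named CD163 used here and no tested marker at 0. Its part in the differences of BST2, IFITM1 and IFI27 was not tested.

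**Figure D4:**
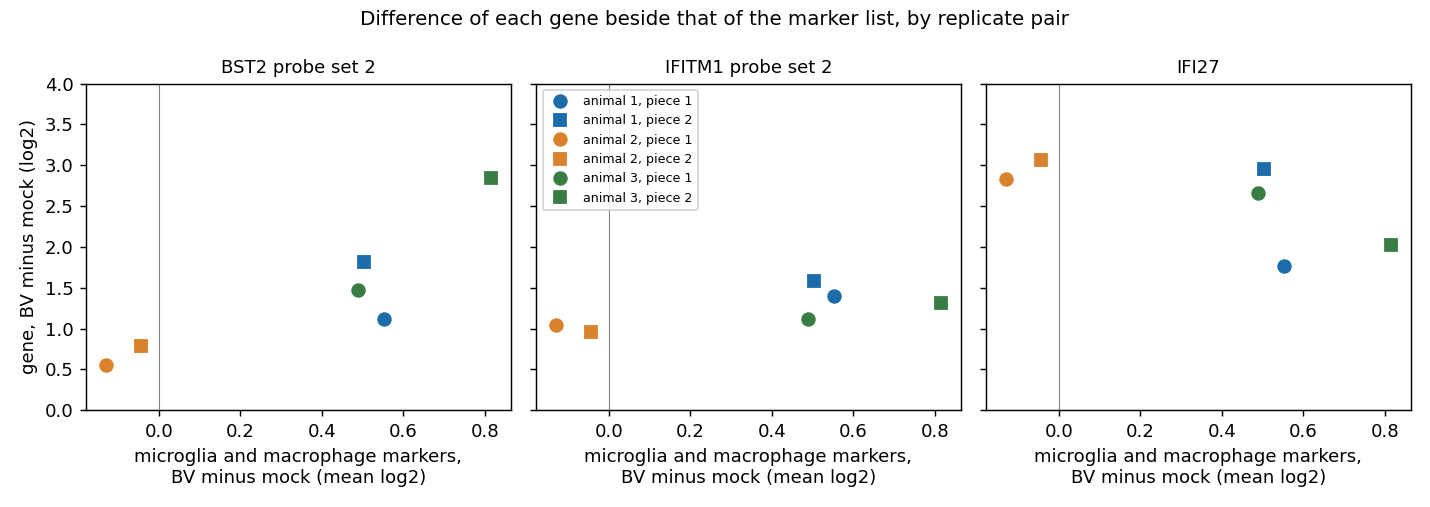
BV minus mock difference (log2) of BST2, IFITM1 and IFI27, each by its brightest probe set, against that of the mean of 11 microglia and macrophage markers, with 1 point per replicate pair. The points of animal 2 (orange) lie near 0 on the horizontal axis. There BST2 and IFITM1 each have their 2 lowest points, and IFI27 has values of 2.83 and 3.07.

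Markers of other cells were read in the same way. Endothelial and mural cell markers, 7 of 13 tested, had a median difference of 0.15 and 0 passed; the list mean had positive differences in 6 of 6 pairs, 0.016 to 0.35, and their summed signal ran from 1174 to 2010 in BV and from 1196 to 1588 in mock tissue. Neutrophil markers, 6 of 10 tested, had a median of 0.95 (0.05 in animal 2) and summed signals of 221 to 1291 in BV and 176 to 1291 in mock tissue. Of these 6 markers 0 passed in limma, with 5 positive differences and 1 negative, that of MPO (-0.19). ELANE had 0.02 and the rest 0.82 to 1.34. Lymphocyte markers, 5 of 10 tested and dim, had a median of 0.55, with sums of 217 to 650 in BV and 158 to 286 in mock tissue. All 5 differences were positive, down to 0.003 for CD8A, and 0 passed in limma. CD3D and CD3E were not among the tested genes. The part of these cells in the results was not tested. Of 7 thalamic markers 4 were tested and 0 passed in limma. SHOX2, NTNG1 and TCF7L2 had differences of 1.73, 1.44 and 0.86, and PRKCD had -0.42. The mean of the 4 was 1.90, 1.60 and 1.61 higher in BV tissue in the pairs of replicates 2, 4 and 5. It differed by 0.21 or less in the pairs of replicates 1, 3 and 6. In these last 3 pairs, picked after their marker values were seen, the striatal mean differed by 0.96, 1.45 and -1.09. There IFITM1 probe set 1 had differences of 0.91, 1.45 and 1.43, IFI27 had 1.76, 2.83 and 2.02, and BST2 probe set 1 had 2.27, 1.25 and 3.35. In the pairs of replicates 2, 4 and 5 the striatal mean differed by -4.51, 0.41 and -3.08. There IFITM1 probe set 1 had 2.03, 1.53 and 1.36, IFI27 had 2.96, 3.07 and 2.66, and BST2 probe set 1 had 2.01, 0.64 and 1.53. The part of the region sampled was not tested.

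Relatives of the members by sequence family had smaller differences. IFI27L1 and IFI27L2, paralogs of IFI27 and its neighbours on either side in the RefSeq gene table of assembly T2T-MFA8v1.1, did not pass. IFI27L2 had signals of 394, 753 and 1210 on BV arrays, against 254, 573 and 753 on mock arrays. Its groups overlapped, although 6 of 6 pairs had a positive difference, and its difference was 0.49 ± 0.13 (limma adjusted p = 0.52). IFI27L1, a dim probe set with signals of 31.3 to 105 on BV and 34.8 to 70.6 on mock arrays, had 0.33 ± 0.19 (adjusted p = 0.579). SYNDIG1L, which shares the CD225 domain with IFITM proteins, had -0.82 ± 0.46 (adjusted p = 0.573), and its pairs ran from -2.55 to 0.84. Its 2 lowest pairs were those of replicates 2 and 5, at -2.30 and -2.55. The mean of the striatal markers was lowest in the same pairs, at -4.51 and -3.08, and the part of the region sampled was not tested. IFITM10 was below the intensity filter. Of the 10 relatives listed 3 were tested and 0 passed.

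The pathway around the members was read from lists. Of 10 interferon ligands and receptors 2 were tested and 0 passed: IL10RB, a chain of the type III interferon and IL-10 receptors, had 1.04 ± 0.42, and IFNAR2, a chain of the type I receptor, 0.74 ± 0.25 (adjusted p = 0.564 for both). Interferons IFNA1, IFNA2, IFNB1 and IFNG were not among the tested genes. Of 18 signalling genes 14 were tested, 9 with higher and 5 with lower values by the brightest probe set, at a median of 0.21, and 0 passed. SOCS1, IRF8 and PIAS1 counted as lower, although each had another probe set with a positive difference (up to 0.65, 0.53 and 0.47). No gene counted as higher had a probe set with a negative difference. The factors of largest difference were IRF1 at 1.00 ± 0.40 (adjusted p = 0.564) and IRF7 at -0.89 ± 0.64 (adjusted p = 0.608), whose other probe set had 2.07.

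Among other antiviral effectors 29 of 32 tested genes (46 listed) had higher values in BV tissue by the brightest probe set. The median difference was 1.54, and 3 passed, where 0.0284% of all tested probe sets passed upward. Other probe sets could differ: IFIT2, OAS3 and TRIM22 had 0.01, 0.17 and -0.68, and others up to 2.56, 2.12 and 1.05. PARP9, TRIM25 and GBP2 had 1.49, 1.25 and 1.52, and others down to -0.47, -0.11 and -0.03. ISG15, a ubiquitin-like modifier, the GTPase MX1 and IFIT3 passed, at 3.56 ± 0.13, 3.04 ± 0.19 and 2.13 ± 0.14 (limma adjusted p = 0.00539, 0.0256 and 0.0256). Medians of this list in animals 1, 2 and 3 were 1.47, 0.72 and 2.40, the order that BST2 also had. For BST2 the lead of animal 3 over animal 1 rested largely on the pair of replicate 6. IFITM1 probe set 1, with 1.40 to 1.49, and IFI27, with its highest value in animal 2, did not have the order of the list. Of 12 partners of the member proteins 6 were tested and 0 passed, with a median of 0.19. NEDD4, a ubiquitin ligase that acts on IFITM3, had 0.25 ± 0.20 (adjusted p = 0.638) and CAV1, the caveolin with which IFITM1 can associate, 0.24 ± 0.16 (adjusted p = 0.595).

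**Figure D5:**
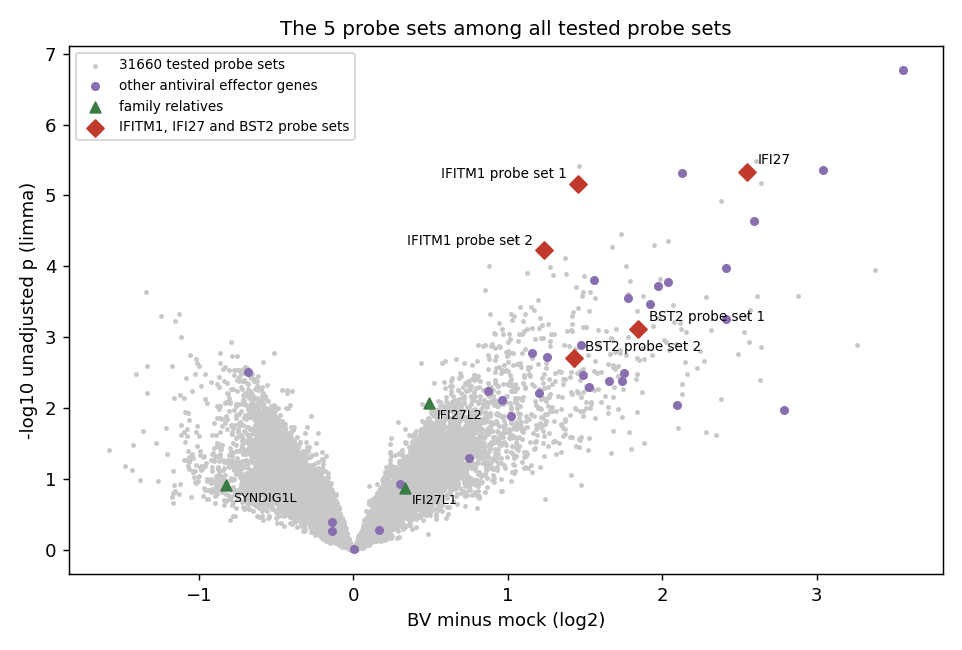
BV minus mock difference (log2, horizontal) against the -log10 of limma's unadjusted p (vertical) for 31660 tested probe sets (grey), with the 5 member probe sets (red diamonds), family relatives (green triangles) and other antiviral effector genes by their brightest probe set (purple). IFI27 and IFITM1 probe set 1 lie near the top. Of the relatives, IFI27L2 was 510th in p and SYNDIG1L 31473rd in difference, near the low end.

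Genes of most similar profile were looked up among 11140 named genes over the 12 arrays, which share animals and hemispheres. With the mean profile of the 3 member genes, Pearson's r was 0.970 for the probe set annotated as TTLL6, 0.967 for LGALS3BP, 0.954 for DHX8, 0.947 for MX2 and 0.946 for AMBP. Their differences were 2.64 ± 0.18, 2.41 ± 0.26, 1.94 ± 0.30, 1.56 ± 0.18 and 1.84 ± 0.26, of which that of TTLL6 passed (adjusted p = 0.0269). The closest single gene was ISG15 for IFI27 (r = 0.954), PLAC8 for IFITM1 (r = 0.946) and FBXO38 for BST2 (r = 0.981). FBXO38 had differences of 1.26, 1.02 and 2.75 in animals 1, 2 and 3, and ISG15 had 3.36, 3.60 and 3.71. The 12 arrays hold both treatments, so the BV minus mock difference enters these r values. By their brightest probe sets, IFI27 and IFITM1, IFI27 and BST2, and IFITM1 and BST2 had r of 0.851, 0.705 and 0.916 over 12 arrays. Over the 6 pair differences r was -0.377, -0.414 and 0.551. All r values are descriptions of likeness, and what the probe sets named TTLL6, DHX8, AMBP and FBXO38 detect was not checked.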

How the data were processed

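The authors deposited 1 intensity per probe set and array on a linear scale. GCOS 1.4.0.036 is named in the submitters' processing notes. Which summary algorithm and scaling were used is not given in the sources used here. Arrays were quantile normalized because their medians differed by over 10%, and a pseudocount of 3.49, the 10th percentile of the deposited intensities, was added before log2. Control probe sets (99) were left out, and 31660 probe sets at or above the 40th percentile of mean log2 (4.95) were tested. The array is a rhesus design, and its platform annotation gave the symbols: 24969 probe sets had 1 symbol, 361 several and 27535 none listed. Rhesus probes can bind cynomolgus RNA less well.

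Pieces of a hemisphere were averaged and fitted in limma 3.58.1 (R 4.3.3) with animal as a block, a variance trend, 2 residual degrees of freedom and two-sided Benjamini-Hochberg adjusted p at 0.05 over all tested probe sets. The block follows from the protocol. After removing group means, the 2 hemispheres of animals 1, 2 and 3 correlated at 0.622, 0.156 and 0.361, and those of same-numbered arrays at 0.284 to 0.623. Interaction terms used single arrays. The fit was tested on simulated data. The number of animals limits the precision.

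The members and gene lists were chosen with earlier results of these data known. The genes named were all members, the passing genes of each pathway list or otherwise the 2 of largest difference, the 5 genes most like the member profile and the 1 most like each member. Family relatives that were measured, and genes said to be untested, were named in addition. For lists, the brightest probe set stood for a gene. Alternatives covered normalization, pseudocount, filter, variance trend, block, array set, and leaving out each animal and array. The same alternatives for named genes outside the members were added after seeing the data.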

Additional observations from a re-analysis of the deposited data

How the results depend on the processing

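Under each of 28 alternatives all 5 member probe sets kept a higher value in BV tissue and an unadjusted p under 0.05, and the median difference of the member genes moved by less than the SD over animals. The counts of calls in limma moved with the setting. In the fit with the replicate block, 55 probe sets passed in all and 10 pathway genes, against 9 and 3 as reported. The other fits gave, for all probe sets, members and pathway genes in turn, 1, 0 and 1 without normalization, 1, 0 and 1 without the variance trend, 38, 3 and 10 with piece as a term, and 85, 4 and 14 with duplicateCorrelation. In the duplicateCorrelation fit the consensus correlation of pieces within a hemisphere was -0.25, and a negative value makes the SE smaller. Without a filter 5 probe sets and 1 member passed, and without the animal block 4 and 0. With piece 1 alone the 3 counts were 16, 1 and 5, and with piece 2 alone 0, 0 and 0, where 1769 probe sets had an unadjusted p under 0.05. They were 1, 0 and 1 without animal 1, 1843, 5 and 31 without animal 2, and 73, 3 and 11 without animal 3. Leaving out single arrays gave 0 to 42 probe sets, 0 to 4 members and 0 to 9 pathway genes, and dropping mock replicate 5 left 0 of each, with 1709 probe sets under an unadjusted 0.05. The NEDD4 difference ran from -0.046 to 0.54 when single arrays were left out, and was negative without BV replicate 2 (-0.046) and without mock replicate 1 (-0.032). The causes were not tested. Where 1 array is left out, its hemisphere rests on the other piece, so piece differences enter. The interaction counts of members stayed at 0 under each alternative run. The member probe sets lay between the 95.7th and 98.9th percentile of brightness, and how signal level bears on their differences was not tested.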
